A study of Mus musculus with 4 samples.

Results

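The 9 genes described here encode secreted modulators of Wnt signalling and 2 Wnt ligands: Sfrp1, Sfrp2, Sfrp4 and Frzb (secreted Frizzled-related proteins), Dkk2 and Dkk3 (the Dickkopf family), Wif1 (Wnt inhibitory factor), Wnt5a and Wnt6. They were chosen by symbol from the 32286 genes of the count matrices and were followed through fibroblast subsets, kinds of muscle cell, Schwann cells of the nerve sheath and the other cell types of 3 single-cell libraries of mouse popliteal vessels. All mice were adults of a strain with a GFP-Cre fusion at the Wt1 locus (Wt1tm1(EGFP/cre)Wtp/J), crossed with the Ai9 tdTomato reporter, and every group carried both alleles; in this strain Cre follows Wt1 expression, and the reporter was not used here to choose cells. The libraries PLV 1 and PLV 2 each held popliteal lymphatic vessels (PLV) of 2 pooled mice, digested for 30 minutes with collagenase I, Dispase II, DNAse and Liberase. The mixed library held PLV cells together with cells labelled BV, the vein isolated beside them, from 2 pooled mice. It was digested for 60 minutes with collagenase I and Dispase II alone, and since its hashtag counts were not used here, its vessels are not separated and it is treated as 1 sample. No gene was deleted and no drug was compared, and Evans blue dye had been injected into the footpad to show the vessels.

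Wnt proteins are secreted lipid-modified ligands that bind Frizzled receptors, either with the co-receptors Lrp5 and Lrp6 to stabilise beta-catenin or through beta-catenin-independent routes. The Frizzled-related proteins resemble the ligand-binding part of Frizzled and bind Wnts outside the cell, Wif1 also binds Wnts directly, and Dkk2 acts on the co-receptors. Dkk3 is a divergent family member whose part in Wnt signalling is less settled. Wnt5a is known mainly for beta-catenin-independent signalling. In vessel walls and peripheral nerve such factors are made largely by connective tissue cells, among them endoneurial fibroblasts inside nerve bundles and perineurial cells that wrap them.

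The genes are spread over the mouse genome (GRCm38, GENCODE M21 annotation, all protein coding). Sfrp1 lies at chr8:23411502-23449632 on the plus strand, Sfrp2 at chr3:83766321-83774316 (plus), Sfrp4 at chr13:19623104-19632994 (plus) and Frzb at chr2:80411970-80447625 (minus). Dkk2 lies at chr3:132085292-132180304 (plus), Dkk3 at chr7:112116017-112159057 (minus) and Wif1 at chr10:121033960-121100650 (plus). Wnt5a lies at chr14:28504750-28527448 (plus) and Wnt6 at chr1:74771892-74785322 (plus). No other gene of the annotation overlaps a member on its own strand. Gm26771, Gm2670 and Gm29539 overlap Sfrp2, Wnt5a and Wnt6 on the opposite strand. The sources used here give no strand setting of the counting, and the part of these genes in the counts was not examined.

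Promoter sequence was at hand for 5 of the 9 genes (RefSeq, GRCm38.p6), and 4 are printed here, from genes of different cells: Sfrp2 and Dkk2 of fibroblasts, Wnt6 of perineurial and non-myelinating Schwann cells, and Frzb of Schwann cells. Each run is the 250 bases before the RefSeq start, 5′ to 3′ in the sense of the gene, and capitals mark the letters CTTTG or, on the other strand, CAAAG (the core bound by TCF/LEF factors) and TATAAA or TTTATA (the TATA box); these motifs do not overlap each other in the printed runs.
Sfrp2, chr3:83766071-83766320, plus strand: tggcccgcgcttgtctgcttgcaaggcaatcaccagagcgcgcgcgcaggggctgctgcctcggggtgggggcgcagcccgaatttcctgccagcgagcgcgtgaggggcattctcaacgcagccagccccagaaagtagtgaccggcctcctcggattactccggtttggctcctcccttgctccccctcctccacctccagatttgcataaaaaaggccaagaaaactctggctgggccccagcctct
Dkk2, chr3:132085042-132085291, plus strand: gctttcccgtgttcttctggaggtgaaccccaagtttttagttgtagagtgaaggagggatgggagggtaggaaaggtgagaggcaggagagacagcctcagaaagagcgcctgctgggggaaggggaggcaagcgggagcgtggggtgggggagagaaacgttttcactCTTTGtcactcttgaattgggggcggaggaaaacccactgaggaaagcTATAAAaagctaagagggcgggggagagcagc
Wnt6, chr1:74771642-74771891, plus strand: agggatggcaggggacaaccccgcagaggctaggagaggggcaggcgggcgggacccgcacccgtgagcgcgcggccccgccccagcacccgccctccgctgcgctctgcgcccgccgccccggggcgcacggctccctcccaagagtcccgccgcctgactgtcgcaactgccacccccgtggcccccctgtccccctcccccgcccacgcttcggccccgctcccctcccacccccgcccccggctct
Frzb, chr2:80447397-80447646, minus strand: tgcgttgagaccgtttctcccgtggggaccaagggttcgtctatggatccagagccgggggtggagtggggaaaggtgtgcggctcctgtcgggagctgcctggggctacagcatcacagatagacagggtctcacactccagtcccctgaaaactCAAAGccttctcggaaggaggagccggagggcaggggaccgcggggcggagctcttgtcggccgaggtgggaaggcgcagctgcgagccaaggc
The Dkk2 window held 1 match of the TCF/LEF core and 1 TATA box, the Frzb window held 1 TCF/LEF core, and neither motif was found in the windows of Sfrp2 and Wnt6. Among all 32851 RefSeq windows of 250 bases, 48.6% held the TCF/LEF core and 12.4% the TATA box. The Wnt6 window was the richest of the 4 in G and C (79.6%), against 63.6% for Sfrp2, 64.4% for Frzb, 55.6% for Dkk2 and a median of 52.4% over all windows. A match of letters describes the sequence only. The RefSeq start of Frzb lies inside the GENCODE gene model.

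After filtering, PLV 1 held 1911 cells with 9582341 unique molecular identifiers (UMIs, each standing for 1 captured RNA molecule), PLV 2 held 516 cells with 3390010 and the mixed library held 994 cells with 7770796. No kept barcode was shared between libraries. Levels are given as CPM, the gene's UMIs per 1e6 UMIs of the summed cells. The 6 classes found in all libraries were fibroblast-like (386, 87 and 258 cells in PLV 1, PLV 2 and the mixed library), muscle-like (426, 110 and 317), pericyte-like (39, 27 and 57), blood endothelial-like (297, 60 and 174), lymphatic endothelial-like (192, 66 and 53) and Schwann-like (234, 53 and 38). Of the markers of each class, at least 3 were 2-fold above the comparison cells in every library; all 7 fibroblast and all 7 Schwann markers were, while for lymphatic endothelial-like cells 2 of the 6 markers were at 0 in the mixed library. PLV 1 also held 101 keratinocyte-like cells, whose summed muscle markers reached 10429 CPM. The member genes and the other Wnt genes were left out of the clustering.

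Fibroblast-like cells, with the neighbouring nerve-sheath cells, fell into 9 sub-clusters. Pi16 adventitial-like cells numbered 122, 10 and 12 in PLV 1, PLV 2 and the mixed library, endoneurial-like cells 41, 13 and 9, and perineurial-like cells 15, 5 and 1. The other 6 sub-clusters were pooled as remaining fibroblasts (223, 59 and 266 cells). The perineurial-like cells of PLV 1 formed their own cluster outside the fibroblast-like class, whereas the 5 of PLV 2 were counted inside it. In the mixed library the 9 endoneurial-like cells, the 1 perineurial-like cell and 20 of the remaining fibroblasts came from clusters left unnamed and lie outside its fibroblast-like class, whereas the fibroblast-like classes of PLV 1 and PLV 2 hold their 41 and 13 endoneurial-like cells. Muscle-like clusters were of a kind marked by Ano1 and Hmcn2 (141, 57 and 200 cells), a kind marked by Pln and Sorbs2 (285, 53 and 43) and, in the mixed library, a kind marked by P2rx1 and Col12a1 (74 cells). Which vessel each kind belongs to was not determined.

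**Figure D1:**
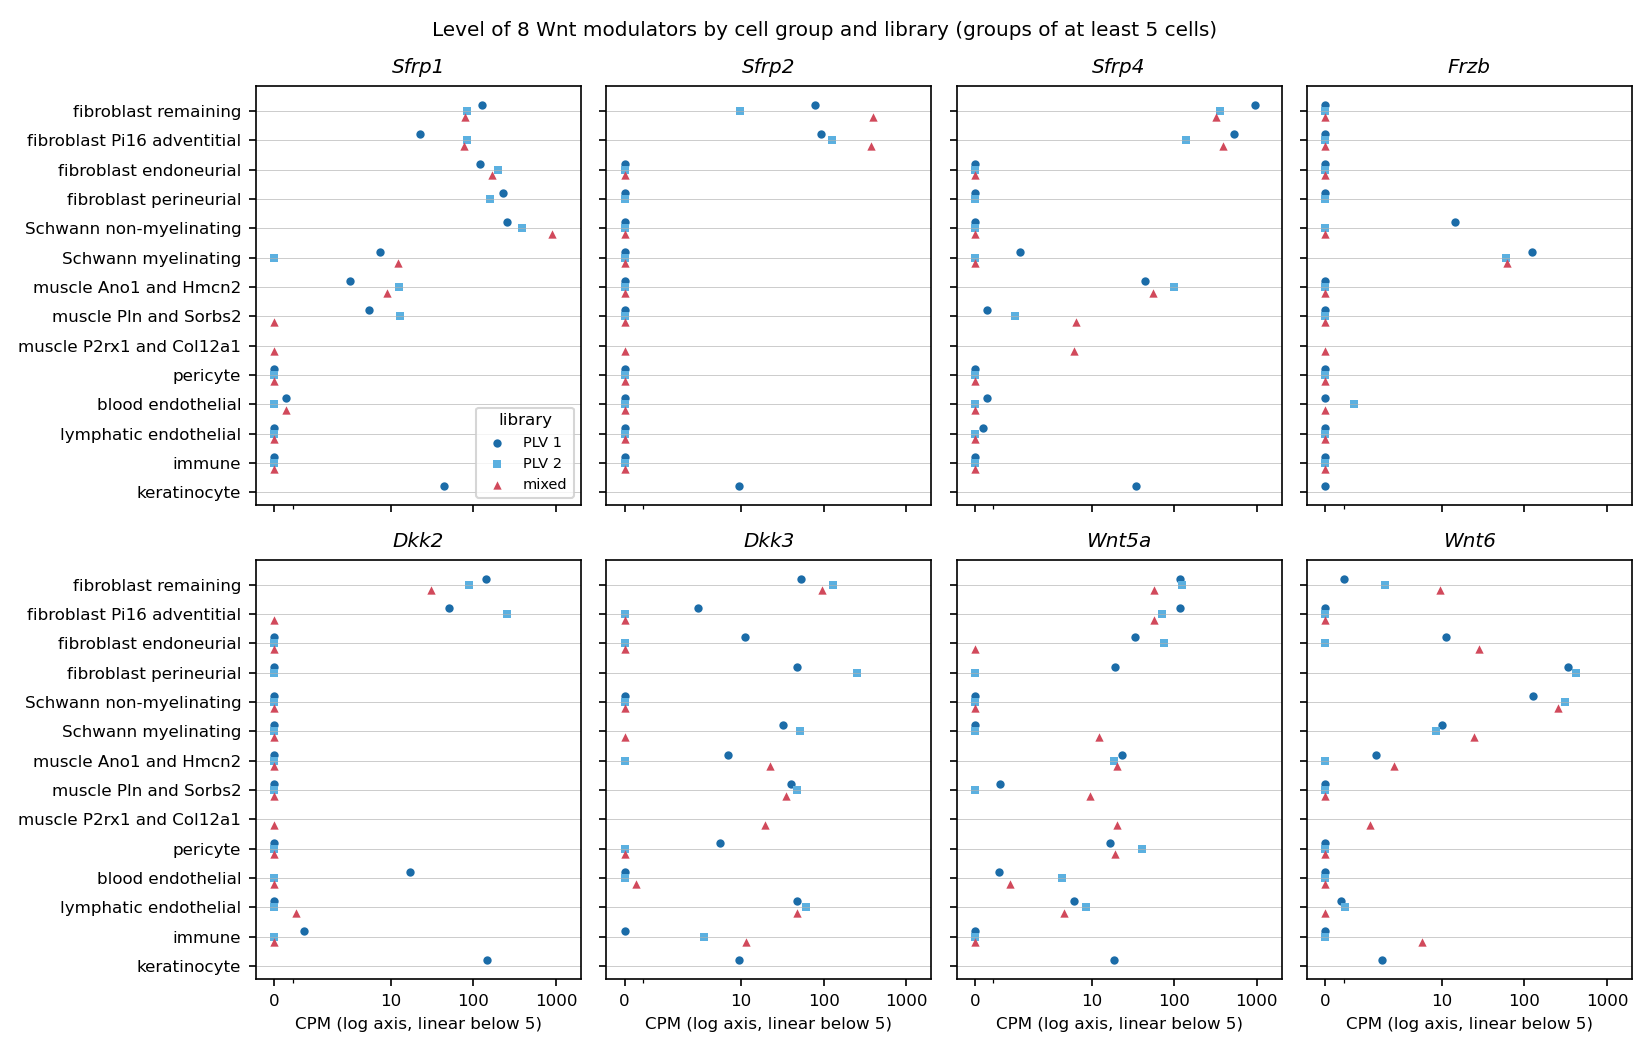
Level (CPM, log axis that is linear below 5) of 8 of the genes in each cell group of at least 5 cells, 1 point per library (PLV 1 circle, PLV 2 square, mixed triangle). Sfrp2, Sfrp4 and Dkk2 were at 0 in endoneurial-like and perineurial-like cells, where Sfrp1 lay between 122 and 228 CPM, and nearly all UMIs of Frzb were in Schwann-like cells.

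In fibroblast-like against muscle-like sums, 7 of the 8 members that passed the filter on low counts were higher in fibroblasts and none was lower (edgeR's quasi-likelihood test with Benjamini-Hochberg adjustment at 0.05). The background was high, since 21.6% of all 10491 tested genes were higher in fibroblasts, 17.4% lower and 38.9% either. The fitted median log2 change was 3.52 over the members, 3.01 over the 7 with a UMI in either class when genes at 0 are put at their lowest bound, and 0.03 over all genes. This count describes the chosen genes and is no test of the list. Sfrp2 and Dkk2 held no UMI in muscle-like cells and passed the filter through other classes, so they could only come out higher. Frzb, the tested member without a call, held no UMI in either class. Wif1, at 0 UMIs in all 6 classes, did not pass the filter; its only 4 UMIs were in 3 of the 101 keratinocyte-like cells of PLV 1.

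Sfrp2 was read only in fibroblasts among the 6 classes. Its UMIs numbered 149 in the fibroblast-like cells of PLV 1 (81.1 CPM), 12 in those of PLV 2 (26.6 CPM) and 823 in those of the mixed library (396 CPM). Muscle-like, pericyte-like, Schwann-like and both endothelial classes held 0 in every library, and 3 further UMIs were in keratinocyte-like cells. The fibroblast level was therefore at least 59.7-fold, 6.94-fold and 326-fold higher than in muscle-like cells in PLV 1, PLV 2 and the mixed library, taking 3 counts per library as the floor (edgeR adjusted p = 2.14e-07; DESeq2 adjusted p = 0.0874). In the mixed library, near-empty droplets (under 50 UMIs each) carried Sfrp2 at 126 CPM, the highest level of any member there. The cells of the 5 other classes in that library showed no Sfrp2. The droplets held Sfrp4 at 92.94, Dkk2 at 26.98, Sfrp1 at 24.98, Dkk3 at 14.99 and Wnt5a at 6.995 CPM. Muscle-like Sfrp4 (32.4 CPM) and Sfrp1 (4.86 CPM) of that library lay below their droplet levels. Muscle-like Dkk3 (23.1 CPM) and Wnt5a (19.0 CPM) lay above theirs. Fibroblast-like Dkk2 (28.9 CPM) lay near its droplet level. Sfrp4 held 0 UMIs in the pericyte-like, Schwann-like and both endothelial classes there. The part of droplet RNA in the cell levels was not tested. Within the fibroblasts, Sfrp2 was at 0 in all endoneurial-like and perineurial-like cells. In Pi16 adventitial-like cells, a subset known as the outer-coat fibroblasts of vessels, it was 93.6, 127 and 372 CPM in PLV 1, PLV 2 and the mixed library, beside 79.1, 9.72 and 390 CPM in the remaining fibroblasts. The difference between these groups did not pass the test (log2 difference 0.23 ± 0.32 SE, edgeR adjusted p = 0.793).

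Sfrp4 was the member with most UMIs in fibroblasts of PLV 1. It reached 740 CPM there, 266 CPM in PLV 2 and 326 CPM in the mixed library, and 59.1%, 29.9% and 44.6% of the fibroblast-like cells held at least 1 UMI. Thinned to 1500 UMIs a cell, these shares were 41.3%, 15.7% and 24.2%, while immune cells, which should lack the gene, held none in any library. Muscle-like cells lay at 14.9, 42.1 and 32.4 CPM, so that fibroblasts were 49.5-fold, 6.31-fold and 10.1-fold above them (log2 difference 4.11 ± 0.38 SE, edgeR adjusted p = 1.25e-07). The highest levels were in the sub-cluster led by Ccn5, Nkain4 and Myoc, which had no cell in the mixed library. All 28 of its cells in PLV 1 and all 4 in PLV 2 held the transcript, at 2654 and 2125 CPM. In PLV 2, 1 cell held 25 of the 36 UMIs, without which the level was 1404 CPM. Endoneurial-like and perineurial-like cells held 0 UMIs in every library. Against the remaining fibroblasts the endoneurial-like level was at least 28.9-fold, 4.79-fold and 3.84-fold lower in PLV 1, PLV 2 and the mixed library (edgeR adjusted p = 6.34e-08).

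Sfrp1 crossed the border between fibroblasts and nerve sheath. Fibroblast-like cells held it at 84.9, 99.7 and 80.9 CPM in PLV 1, PLV 2 and the mixed library, and muscle-like cells at 4.98, 12.8 and 4.86 CPM, without overlap (log2 difference 4.02 ± 0.44 SE, edgeR adjusted p = 2.52e-06). Schwann-like cells held 44.4, 96.0 and 296 CPM. The fibroblast to Schwann ratio was 1.91 in PLV 1, 1.04 in PLV 2 and 0.273 in the mixed library, and over all 3 the classes did not pass the test (log2 difference -0.02 ± 0.43 SE, edgeR adjusted p = 0.994). Unlike Sfrp2 and Sfrp4, Sfrp1 was read in endoneurial-like cells (122, 198 and 168 CPM) and perineurial-like cells (228, 160 and, in the single cell of the mixed library, 422 CPM). Among other fibroblasts it was highest in the Ccn5, Nkain4 and Myoc sub-cluster (392 CPM in PLV 1, 295 CPM in PLV 2). In Pi16 adventitial-like cells it was 22.7 CPM in PLV 1 but 84.7 and 76.4 CPM in PLV 2 and the mixed library, and the call of a lower level there (log2 difference -1.45 ± 0.41 SE, edgeR adjusted p = 0.0195) was lost without PLV 1 (log2 difference -0.25, adjusted p = 0.910), with DESeq2 (0.418), with RLE size factors (0.0585) and without the replicate block (0.156).

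Frzb, also called secreted Frizzled-related protein 3, was read almost only in Schwann-like cells among the 6 classes. It had 51, 7 and 5 UMIs in the Schwann-like cells of PLV 1, PLV 2 and the mixed library (108, 44.8 and 41.1 CPM) and 0 in fibroblast-like, muscle-like, pericyte-like and lymphatic endothelial-like cells of every library; 1 UMI was in a blood endothelial-like cell of PLV 2. Schwann-like cells were at least 79.4-fold, 11.7-fold and 33.8-fold above muscle-like cells (edgeR adjusted p = 2.69e-05; DESeq2 adjusted p = 0.166). Among myelinating cells 19%, 16.7% and 16% held the transcript.

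Dkk2, an inhibitor that acts on the Wnt co-receptors, was rare among fibroblasts and concentrated in few cells. Its 180 UMIs in PLV 1 came from 37 of 386 fibroblast-like cells, its 45 in PLV 2 from 5 of 87 and its 60 in the mixed library from 8 of 258 (98.0, 99.7 and 28.9 CPM). A single cell supplied 52 of the 180 in PLV 1 and 25 of the 45 in PLV 2, and without the highest cell the levels were 70.1, 45.2 and 21.8 CPM. Muscle-like, pericyte-like and Schwann-like cells held 0 in every library, which put fibroblasts at least 72.2-fold, 26.0-fold and 23.8-fold above muscle-like cells (edgeR adjusted p = 6.84e-06; DESeq2 adjusted p = 0.142). All 60 UMIs of the mixed library were in the sub-cluster led by Cxcl14, Hmox1 and Lpl, and 50 of those in PLV 1 were in 14 of the 28 cells of the Ccn5, Nkain4 and Myoc sub-cluster. In PLV 1, 26 UMIs were also in 15 blood endothelial-like cells (16.8 CPM), a class at 0 in the other libraries. The 146 CPM of keratinocyte-like cells rested on 1 cell with 46 of the 47 UMIs.

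Dkk3 was read in several classes. Fibroblast-like cells held it at 31.0, 106 and 90.5 CPM in PLV 1, PLV 2 and the mixed library, lymphatic endothelial-like cells at 47.3, 61.5 and 47.1 CPM, muscle-like cells at 29.0, 28.1 and 23.1 CPM and Schwann-like cells at 27.5, 38.4 and 0 CPM. Fibroblasts were above muscle-like cells by 3.79-fold and 3.92-fold in PLV 2 and the mixed library and by 1.07-fold in PLV 1 (log2 difference 1.63 ± 0.37 SE, edgeR adjusted p = 0.00155; 1.43 and 0.0670 without PLV 2). Against lymphatic endothelial-like cells the levels overlapped and the test was not passed (log2 difference 0.72 ± 0.36 SE, edgeR adjusted p = 0.129). It was passed without PLV 1 (log2 difference 1.23, adjusted p = 0.0116) and with no filter on low counts (0.70, 0.0344). Within the fibroblasts the sub-cluster led by Mgp, Epha3 and Inmt stood above the class in PLV 1 and PLV 2, at 197 and 620 CPM, whereas in the mixed library its 99.2 CPM (4 UMIs in 8 cells) lay near the class level. Pi16 adventitial-like cells were low, with 3 UMIs in 122 cells of PLV 1 and 0 in the other libraries (log2 difference from the remaining fibroblasts -4.61 ± 0.70 SE, edgeR adjusted p = 7.54e-06). Dkk3 and Sfrp1 were the 2 of 8 members lower in Pi16 adventitial-like cells, beside 5.03% of all genes, and none was higher (3.16%; 8.19% either way). Dkk2 did not pass there (log2 difference -0.75 ± 0.55 SE, edgeR adjusted p = 0.521) but did in 4 alternatives: without PLV 2 (-1.74, 0.0474), with at least 1000 UMIs a cell (-1.91, 0.0190), with a Leiden resolution of 2 (-1.67, 0.0236) and with the members and the Wnt list kept in the clustering (-1.84, 0.0400). Sfrp4 (log2 difference -0.62 ± 0.30 SE, edgeR adjusted p = 0.257) passed without the mixed library (-0.86, 0.0357).

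Wnt5a was the broad fibroblast ligand of this set. Fibroblast-like cells held 114, 104 and 57.8 CPM in PLV 1, PLV 2 and the mixed library, with 29.3%, 32.2% and 30.6% of cells holding a UMI, and no single cell held more than 10 UMIs. Muscle-like cells lay at 8.60, 7.66 and 19.0 CPM, pericyte-like cells at 16.8, 40.9 and 19.1 CPM and lymphatic endothelial-like cells at 6.13, 8.63 and 4.83 CPM. All of these were below every fibroblast value. The pericyte-like levels rested on 3 UMIs in 1 cell of PLV 1, 5 UMIs in 2 cells of PLV 2 and 7 UMIs in 5 cells of the mixed library. The fibroblast level was higher than in muscle-like cells by a log2 difference of 3.01 ± 0.33 (SE, edgeR adjusted p = 4.98e-07). Pi16 adventitial-like cells held 116, 70.5 and 57.3 CPM, of which the PLV 2 value rests on 5 UMIs in 10 cells, and the remaining fibroblasts 119, 126 and 57.7 CPM; the test was not passed (log2 difference -0.18 ± 0.32 SE, edgeR adjusted p = 0.848). Perineurial-like cells had 2 UMIs in PLV 1 and 0 in PLV 2 and the mixed library, lower than the remaining fibroblasts by the same fit (log2 difference -3.35 ± 0.81 SE, edgeR adjusted p = 0.00267), a call lost without PLV 1 (adjusted p = 0.0860) or without PLV 2 (0.0690).

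Wnt6 was highest in perineurial-like and non-myelinating Schwann-like cells. Perineurial-like cells held 35 UMIs in PLV 1, 13 in PLV 2 and 10 in the single cell of the mixed library (333, 415 and 469 CPM), and non-myelinating Schwann-like cells held 9, 12 and 10 UMIs (128, 307 and 254 CPM). Endoneurial-like cells held 1 UMI in PLV 1 and 1 in the mixed library. They did not pass against the remaining fibroblasts (log2 difference 0.86 ± 1.25 SE, edgeR adjusted p = 0.774). The remaining fibroblasts lay at 1.00, 3.24 and 9.44 CPM. Perineurial-like cells were thus above them by a log2 difference of 5.83 ± 0.59 (SE; edgeR adjusted p = 2.65e-09), in a fit that used PLV 1 and PLV 2 since the mixed library had 1 such cell. The whole fibroblast-like class also passed against muscle-like cells (log2 difference 2.62 ± 0.76 SE, edgeR adjusted p = 0.0121), with 2, 14 and 19 UMIs against 2, 0 and 7. That call was lost without PLV 2 (adjusted p = 0.197), with at least 1000 UMIs a cell (0.0919) and with a Leiden resolution of 2 (0.0690), and 13 of the 14 UMIs in PLV 2 were in its 5 perineurial-like cells.

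Against the other classes the counts were as follows. In fibroblast-like against Schwann-like sums 35.7% of all genes passed either way, and 5 members were higher in fibroblasts (Sfrp2, Sfrp4, Dkk2, Dkk3 and Wnt5a), beside 20.4% of all tested genes, and Wnt6 and Frzb were lower, beside 15.3%. DESeq2 called 4 members there; Sfrp2, Dkk2 and Frzb, each at 0 in the lower class, were not among them. Wnt6 was below Schwann-like cells by a log2 difference of 2.43 ± 0.62 (SE; edgeR adjusted p = 0.00600), and this call was lost without PLV 1 (adjusted p = 0.0553). Dkk3 was above them by a log2 difference of 1.79 ± 0.53 (SE; edgeR adjusted p = 0.0123), a call lost without PLV 2 (0.0915) or without the mixed library (0.122). Pericyte-like sums had 6 members lower than fibroblasts (background 13.5% in this direction, 23.6% in either), blood endothelial-like sums 7 (18.4%) and lymphatic endothelial-like sums 6 (19.5%), and no member was higher in any of these 3 classes. DESeq2 did not call Sfrp2 and Dkk2 in any of these 3 comparisons (adjusted p = 0.299 and 0.409 against pericyte-like, 0.107 and 0.588 against blood endothelial-like, 0.103 and 0.237 against lymphatic endothelial-like cells). Wnt6 did not pass against pericyte-like cells (log2 difference 6.68 ± 2.38 SE, edgeR adjusted p = 0.0553). It did with DESeq2 (3.71, 0.0426) and with no filter on low counts (6.63, 0.00522). Pericyte-like cells held no Wnt6 UMI in any library, so the size of these differences has no measured lower side. The fibroblast levels were 1.09, 31.0 and 9.15 CPM in PLV 1, PLV 2 and the mixed library. In PLV 1 this lay under the pericyte-like floor of 3 counts, so no difference was detectable there. Wnt6 lost its call against lymphatic endothelial-like cells without PLV 2 (adjusted p = 0.104). Schwann-like against muscle-like sums had Sfrp1, Wnt6 and Frzb higher (background 15.4%) and Sfrp4 and Wnt5a lower (18.8%; 34.2% either way). The lower level of Wnt5a was lost without PLV 1 (adjusted p = 0.266), without PLV 2 (0.0771) or with DESeq2 (0.0519).

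Endoneurial-like and perineurial-like cells were set against the remaining fibroblasts in a fit of sums of at least 5 cells, added because no pair of subsets reached 20 cells in 2 libraries. In endoneurial-like cells, Sfrp2, Sfrp4, Dkk2 and Dkk3 were lower, 4 of 8 members beside 5.76% of all 9621 genes, and none was higher (2.55%; 8.3% either way). In perineurial-like cells, Sfrp2, Sfrp4, Dkk2 and Wnt5a were lower (background 8.29%) and Wnt6 was higher (4.99%). DESeq2 called 1 and 3 members in these comparisons. The zeros of Dkk2 limit little. In perineurial-like cells of PLV 2 no difference from the remaining fibroblasts was detectable. In endoneurial-like cells the level was at least 4.28-fold lower in PLV 1. There 1 remaining fibroblast held 52 of the 142 UMIs, without which the remaining fibroblasts lay at 91.2 CPM and the bound is smaller. In PLV 2 the bound of 1.18-fold rests on 1 remaining fibroblast with 25 of the 27 UMIs, without which these cells lay at 6.67 CPM, under the endoneurial-like floor of 74.4 CPM. In the mixed library the remaining fibroblasts, at 30.3 CPM, lay under the floor of 83.8 CPM. Sfrp2 in endoneurial-like cells was at least 2.38-fold lower in PLV 1 and 4.65-fold lower in the mixed library, while in PLV 2 the remaining fibroblasts, at 9.72 CPM, lay under the floor and no difference was detectable. The call was lost without the mixed library (adjusted p = 0.0583). Dkk2 in endoneurial-like cells lost its call without PLV 1 (adjusted p = 0.105) and with RLE size factors (0.0669), and Dkk3 lost its call without PLV 2 (0.0738) and with at least 1000 UMIs a cell (0.0801). Wnt5a did not pass in endoneurial-like cells (log2 difference -1.80 ± 0.59 SE, edgeR adjusted p = 0.0518) but did with no filter on low counts (0.0194), with doublets kept (0.0467) and with a Leiden resolution of 2 (0.0375). In perineurial-like cells Sfrp2 and Dkk2 lost theirs without PLV 1 (0.521 and 0.173), and Sfrp2 also with a Leiden resolution of 0.5 (0.191). For Sfrp2 in PLV 2 no difference was detectable there, since the remaining fibroblasts, at 9.72 CPM, lay under the perineurial-like floor of 95.8 CPM. Depth also differed, with medians of 2156, 2821 and 3740 UMIs in endoneurial-like cells and 3796, 4225 and 6904 in the remaining fibroblasts; its part in the zeros was not tested.

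In the Schwann-like class the non-myelinating and myelinating cells held different members. Sfrp1 was at 257, 383 and 887 CPM in the non-myelinating cells of PLV 1, PLV 2 and the mixed library, at least 15-fold above the myelinating cells in PLV 2 and 34.5-fold and 73.0-fold above them in PLV 1 and the mixed library (counting intervals 10.1 to 183 and 12.3 to 2966). The fitted log2 difference was 5.63 ± 0.62 (SE), with an edgeR adjusted p of 8.95e-09. A single cell supplied 11 of the 15 UMIs in PLV 2, without which the level was 121 CPM. Wnt6 was also higher in non-myelinating cells (log2 difference 3.63 ± 0.65 SE, edgeR adjusted p = 9.98e-05), at 128, 307 and 254 CPM against 9.93, 8.54 and 24.3 CPM. Frzb was lower in them (log2 difference -4.02 ± 1.13 SE, edgeR adjusted p = 0.0178), with 1, 0 and 0 UMIs against 50, 7 and 5, and this call was lost without PLV 2 (adjusted p = 0.0752), with DESeq2 (0.845) and with clusters cut at a Leiden resolution of 0.5 (0.0813). The difference in Frzb was detectable in PLV 1 alone (14.3 against 124 CPM, ratio 0.115, counting interval 0.00285 to 0.67): in PLV 2 and the mixed library the myelinating levels of 59.8 and 60.8 CPM lay under the floors of 76.7 and 76.1 CPM that 0 UMIs allow in non-myelinating cells. Dkk3 passed as lower in non-myelinating cells with no filter on low counts alone (log2 difference -7.07, adjusted p = 0.0362). With the filter, 2 members were higher beside 5.08% of all genes and 1 was lower beside 5.71%. Summed fibroblast markers were 2724, 3578 and 6516 CPM in non-myelinating cells and 1467, 1051 and 2066 CPM in myelinating cells; 4 of the 7 were at 0 in non-myelinating cells of each library, and so were Sfrp2 and Sfrp4.

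Between the muscle kinds 3 members passed the filter and all 3 passed the test. The background was 15.6% of 7754 genes higher in the Ano1 and Hmcn2 kind and 16.3% lower. Sfrp4 was at 44.2, 99.3 and 54.9 CPM in the Ano1 and Hmcn2 kind of PLV 1, PLV 2 and the mixed library and had 1, 1 and 2 UMIs in the Pln and Sorbs2 kind (ratios 65.8, 45.8 and 8.57, counting intervals 11 to 2678, 7.64 to 1863 and 2.29 to 72.1). Its fitted log2 difference was 4.67 ± 0.48 (SE), with an edgeR adjusted p of 6.39e-09. Wnt5a was at 23.5, 18.6 and 20.3 CPM against 1.35, 0 and 9.61 CPM (log2 difference 2.91 ± 0.69 SE, edgeR adjusted p = 0.00129). Dkk3 went the other way, at 6.91, 0 and 22.6 CPM against 39.7, 47.7 and 35.2 CPM (log2 difference -1.96 ± 0.41 SE, edgeR adjusted p = 0.000373), and lost its call without PLV 1 (adjusted p = 0.0658). With clusters cut at a Leiden resolution of 0.5, Sfrp4 and Wnt5a lost theirs (adjusted p = 0.353 and 0.199). The summed fibroblast markers were 3362, 2767 and 5156 CPM in the Ano1 and Hmcn2 kind and 577, 456 and 2294 CPM in the other, with at most 1 of the 7 at 0 in the former, and their part in these differences was not tested. Sfrp2 and Dkk2, both read in fibroblast-like cells of every library, were at 0 UMIs in every muscle kind. In the mixed library the 54.9 CPM of Sfrp4 in the Ano1 and Hmcn2 kind lay below its 92.94 CPM in near-empty droplets. The part of droplet RNA in this level was not tested.

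**Figure D2:**
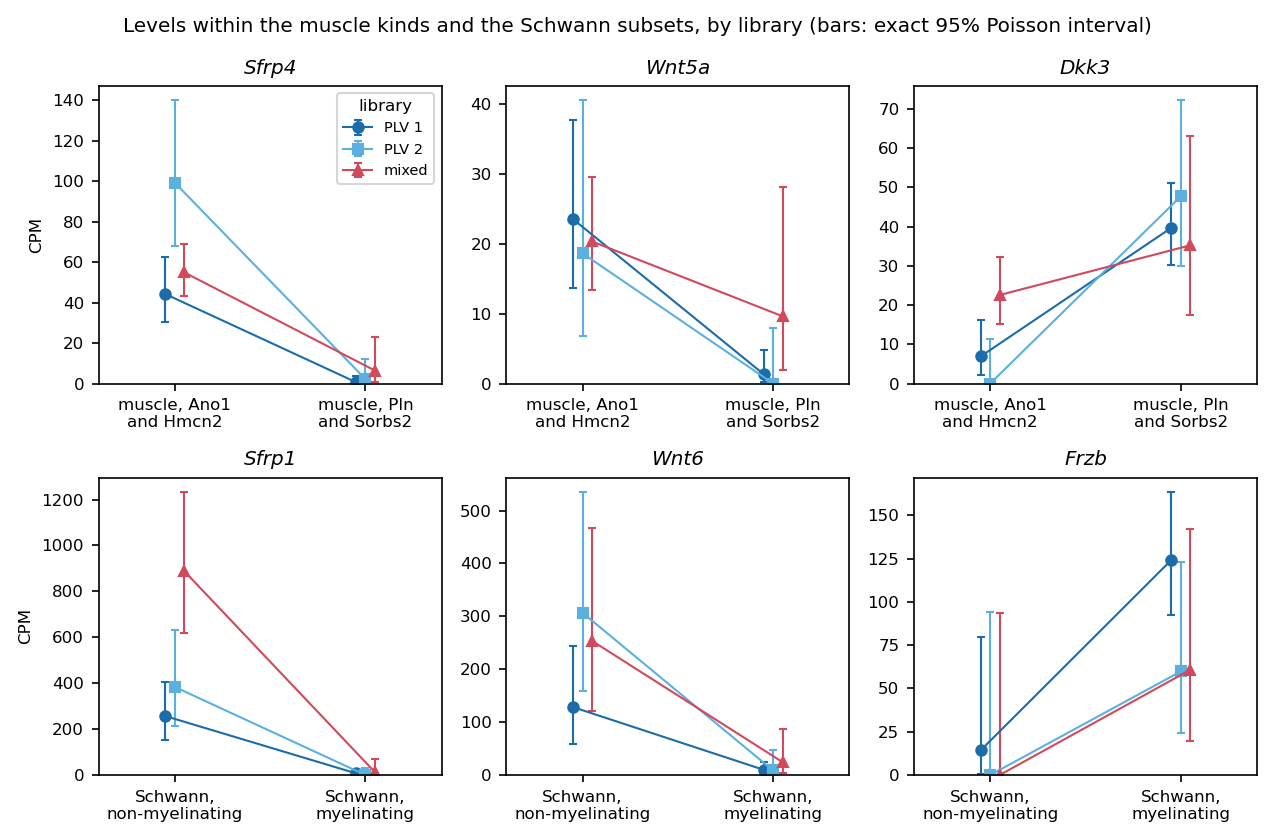
Levels (CPM) of 3 genes in the 2 muscle kinds found in all libraries (top) and of 3 genes in the 2 Schwann-like subsets (bottom); lines join the values of 1 library and bars are exact 95% Poisson intervals of the counts. In every library Sfrp4 and Wnt5a were higher in the Ano1 and Hmcn2 kind, Dkk3 was higher in the Pln and Sorbs2 kind, and Sfrp1 and Wnt6 were higher in non-myelinating cells.

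The mixed library was then set against the PLV libraries within a class. Vessel, digestion, run and mice differ together here and cannot be told apart, and the lone mixed library is assumed to vary like the PLV libraries. Its own spread is not measured, so each SE and p here rests on that assumption. In fibroblast-like cells 1 of 7 tested members was higher in the mixed library (background 8.08% of 10501 genes) and 1 was lower (4.22%); either way, 12.3% of genes were called. The endoneurial-like cells, at 0 for Sfrp2 and Dkk2, are in the fibroblast-like class in the PLV libraries and outside it in the mixed library. Among the remaining fibroblasts alone Sfrp2 was at 79.1, 9.72 and 390 CPM in PLV 1, PLV 2 and the mixed library. Dkk2 was at 142, 87.4 and 30.3 CPM in them. Over the fibroblast-like class Sfrp2 was higher in the mixed library by a log2 difference of 3.30. The share of fibroblast-like cells with an Sfrp2 UMI did not follow: it was 12.4% in PLV 1, 6.90% in PLV 2 and 10.1% in the mixed library, or 7.37%, 1.43% and 7.38% after thinning to 1500 UMIs. What differed was the number of UMIs per cell that held any, with a median of 2 in 48 cells of PLV 1, 1.5 in 6 cells of PLV 2 and 12.5 in 26 cells of the mixed library. The highest cell held 15, 4 and 164 UMIs. Without the highest cell of each library the levels were 73.3, 18.0 and 319 CPM.

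**Figure D3:**
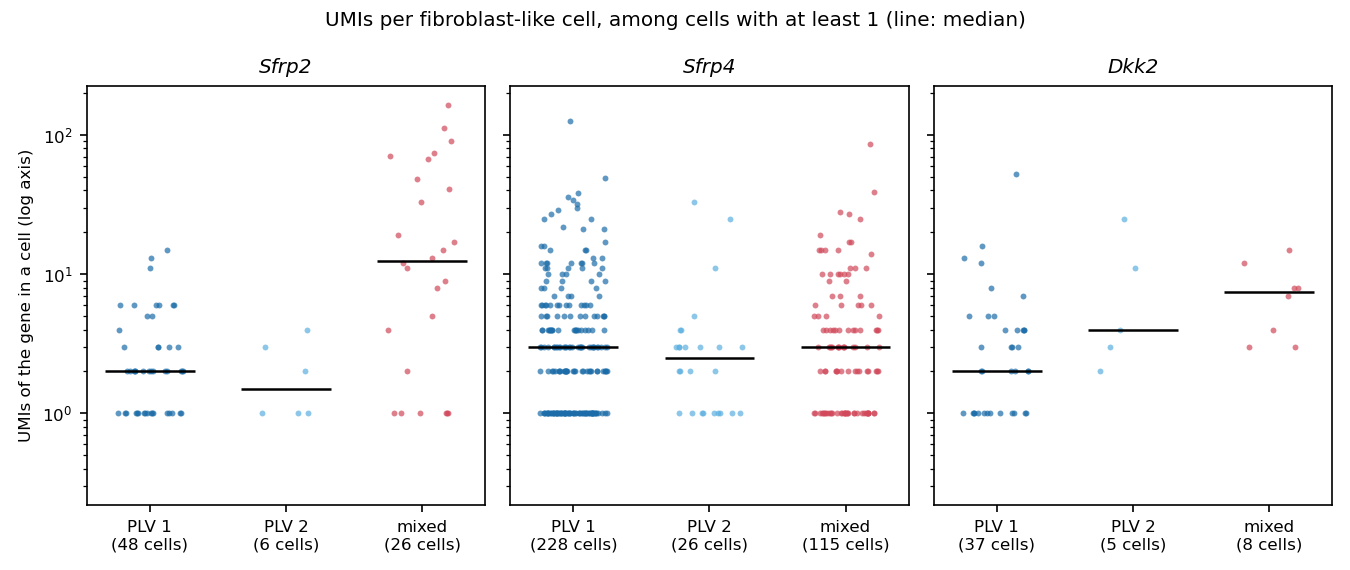
UMIs of Sfrp2, Sfrp4 and Dkk2 in each fibroblast-like cell that held at least 1, by library (log axis; line: median). For Sfrp2 the median was 12.5 UMIs in the mixed library and 2 and 1.5 in PLV 1 and PLV 2, while for Sfrp4 it was 3 in PLV 1 and the mixed library and 2.50 in PLV 2.

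The sub-clusters also differed between the libraries, since 133 of the mixed library's cells but 4 and 9 of those in PLV 1 and PLV 2 were in the sub-cluster led by Nkain4 and Itgbl1. Within sub-clusters the direction of Sfrp2 varied. It was higher in the mixed library in 3 of them: in the Cxcl14, Hmox1 and Lpl sub-cluster it was 1070 CPM against 31.8 and 17.0 CPM, in the Igf2 and Igfbp3 sub-cluster 466 CPM (from 4 of 64 cells) against 48.6 and 0 CPM, and in Pi16 adventitial-like cells 372 CPM against 93.6 and 127 CPM. In the sub-cluster of low UMI counts it was lower, at 13.4 CPM against 140 and 131 CPM (1, 5 and 1 UMIs), and in the Nkain4 and Itgbl1 sub-cluster 93.7 CPM stood against 185 CPM in the 4 cells of PLV 1 (2 UMIs) and 0 in PLV 2; 1 of the 133 mixed cells held 71 of the 93 UMIs, without which the level was 22.5 CPM. Over the fibroblast-like class Dkk2 was lower in the mixed library (log2 difference -1.22), where its level rests on 8 cells. In the Cxcl14, Hmox1 and Lpl sub-cluster Dkk2 did not follow this direction, at 135 CPM in the mixed library against 90.9 and 17.0 CPM. The log2 differences of the other members in the fit were 1.11 for Dkk3, 0.37 for Sfrp1, 0.30 for Wnt6, -0.37 for Wnt5a and -0.08 for Sfrp4. That of Dkk3 was 1.15 with no filter on low counts and 1.26 with a Leiden resolution of 2. At that resolution the difference of Wnt6 was 3.22.

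In muscle-like cells Wnt5a was the only one of 4 tested members that passed, higher in the mixed library by a log2 difference of 1.42 ± 0.43 (SE; edgeR adjusted p = 0.0114; background 8.67% higher, 7.98% lower, 16.6% either way), and DESeq2 did not call it (adjusted p = 0.819). Within the Ano1 and Hmcn2 kind the levels were 23.5, 18.6 and 20.3 CPM, and within the Pln and Sorbs2 kind 1.35, 0 and 9.61 CPM, in PLV 1, PLV 2 and the mixed library. The Ano1 and Hmcn2 kind made up 141 of 426, 57 of 110 and 200 of 317 muscle-like cells. The P2rx1 and Col12a1 kind, found in the mixed library, held 17 of its 47 muscle-like Wnt5a UMIs (20.6 CPM). In Schwann-like cells Sfrp1 was higher in the mixed library by 2.47 ± 0.42 (SE) on the log2 scale, with an edgeR adjusted p of 2.35e-06, 1 of 3 tested members beside 2.38% of 3732 genes (1.66% lower, 4.05% either way). DESeq2 gave it no adjusted p. Wnt6 passed there with at least 1000 UMIs a cell alone (log2 difference 1.66, adjusted p = 0.0172), and Sfrp4 passed in muscle-like cells with a Leiden resolution of 0.5 alone (1.24, 0.000606). Within non-myelinating cells the order was the same, at 887 CPM in the mixed library against 257 and 383 CPM. In fibroblast-like cells the same contrast for Sfrp1 was not past the threshold (log2 difference 0.37 ± 0.32 SE, edgeR adjusted p = 0.529).

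The order of the classes differed from member to member. By mean level over the 3 libraries (± SD, n = 3), Sfrp4 was highest in fibroblast-like cells (444 ± 258 CPM), followed by muscle-like cells (29.8 ± 13.8 CPM). Among the 6 classes Sfrp2 was read in fibroblast-like cells alone (168 ± 199.5 CPM). Wnt5a followed the order fibroblast-like (91.9 ± 29.9 CPM), pericyte-like (25.6 ± 13.3 CPM) and muscle-like (11.8 ± 6.32 CPM). Pericyte-like and muscle-like cells overlapped in range. Without the highest cell of each library the pericyte-like levels were 0, 8.68 and 14.3 CPM, and the muscle-like levels 7.72, 5.16 and 17.9 CPM. The order of pericyte-like and muscle-like cells is therefore not settled. Sfrp1 ran from Schwann-like (145 ± 133 CPM) to fibroblast-like (88.5 ± 9.92 CPM), which overlapped, to muscle-like (7.54 ± 4.53 CPM). Wnt6 ran from Schwann-like (69.8 ± 37.4 CPM) to fibroblast-like cells (13.8 ± 15.5 CPM), whose ranges overlapped, and Frzb was highest in Schwann-like cells (64.6 ± 37.5 CPM). Dkk3 was highest in fibroblast-like cells (76.0 ± 39.7 CPM), then lymphatic endothelial-like (51.9 ± 8.26 CPM) and muscle-like cells (26.7 ± 3.16 CPM). The fibroblast-like and lymphatic endothelial-like ranges overlapped, and both lay above the muscle-like range.

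The genes most like each member were found by Pearson's correlation of log2(CPM + 20) over the 18 sums of class and library, centred within each library, and are given as a description. Sums of a library share its cells' depth and classes, so no p is given. Sfrp4 was closest to Pcolce2 (r = 0.99) and Adgrd1 (0.98), Sfrp2 to Cldn10 (0.99) and Pycr1 (0.99), Dkk2 to Pla2g4a (0.98) and Inmt (0.97) and Wnt5a to Lrrc17 (0.97) and Zfp385a (0.97). Frzb was closest to Hepacam (1.00) and Mfsd2a (0.99), Wnt6 to Cnksr2 and Pak1 (both 0.98) and Sfrp1 to Efs (0.96) and Abca8a (0.95). Dkk3 had the least close partner, Gaa (0.87), followed by Ahnak2 (0.85). With 5 in place of 20 CPM added, the closest gene changed for Sfrp1 (Gfra2, r = 0.96), Dkk3 (Ahnak2, 0.85), Wnt5a (Zfp385a, 0.95), Wnt6 (Pak1, 0.97) and Frzb (Mfsd2a, 1.00).

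The other Wnt pathway genes came from a list of 75, of which 43 passed the filter on low counts. In fibroblast-like against muscle-like sums 23 passed the test, 11 higher and 12 lower in fibroblasts, beside 38.9% of all genes; without PLV 2 the number was 14. The median log2 change of the 43 was -0.29, against 0.03 over all genes. By role, 3 of 4 tested ligands were higher in fibroblasts and none lower. Of 14 tested receptors and co-receptors 4 were higher and 6 lower, of 5 other inhibitors 2 were higher, of 12 intracellular components 1 was higher and 3 lower, and of 3 feedback targets 2 were lower. Of 3 tested R-spondin pathway genes 1 was higher and 1 lower, and neither of the 2 secretion factors passed.

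Among the ligands, Wnt2 was at 52.8, 15.5 and 25 CPM in fibroblast-like cells of PLV 1, PLV 2 and the mixed library and at 0 UMIs in muscle-like cells of all 3 (edgeR adjusted p = 4.14e-07). Wnt9a and Wnt11 were higher in fibroblasts by 2.84 ± 0.44 and 2.67 ± 0.57 (SE) on the log2 scale (edgeR adjusted p = 7.48e-05 and 0.00100). The Frizzled receptors split between the classes. Fzd10 (56.6, 26.6 and 0.963 CPM in fibroblasts, 0 in muscle-like cells), Fzd1 (log2 difference 2.14 ± 0.30 SE) and Fzd2 (0.84 ± 0.24) were higher in fibroblasts. Fzd8 was lower by 3.87 ± 0.34 (SE) on the log2 scale, at 18.5, 2.22 and 2.89 CPM in fibroblasts against 139, 157 and 126 CPM in muscle-like cells (edgeR adjusted p = 2.28e-08), and Fzd7 was also lower (log2 difference -1.20 ± 0.23 SE).

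The co-receptors went opposite ways, with Lrp6 higher in fibroblasts (log2 difference 0.78 ± 0.21 SE, edgeR adjusted p = 0.00561) and Lrp5 lower (-0.99 ± 0.29, 0.0102). Ror1 and Ryk, receptors used by Wnt5a, were lower in fibroblasts by 1.67 ± 0.35 and 0.63 ± 0.18 (SE) on the log2 scale (edgeR adjusted p = 0.000823 and 0.00720), and so was the glypican Gpc4 (log2 difference -1.08 ± 0.40 SE). Among the inhibitors, Kremen1, which serves as a receptor for Dickkopf proteins, was higher in fibroblasts (log2 difference 1.67 ± 0.27 SE, edgeR adjusted p = 4.40e-05). Lgr5, a receptor for R-spondins, was also higher (3.93 ± 0.79, 0.000629), and Znrf3, a ligase that removes Frizzled from the membrane, was lower (-1.14 ± 0.43, 0.0405). Inside the cell, Tcf7l2 was higher (0.78 ± 0.21), and Bcl9 (-1.48 ± 0.37), Bcl9l (-0.52 ± 0.19) and Csnk1a1 (-0.77 ± 0.18) were lower on the log2 scale (± SE).

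The feedback inhibitors Nkd1 and Nkd2, which Wnt signalling is known to induce, were lower in fibroblasts. Nkd1 was at 13.6, 2.22 and 13.5 CPM in fibroblast-like cells against 234, 239 and 212 CPM in muscle-like cells of PLV 1, PLV 2 and the mixed library, without overlap (log2 difference -4.06 ± 0.35 SE, edgeR adjusted p = 2.13e-08). Nkd2 followed (-1.40 ± 0.28, 0.000525). Axin2, the other tested feedback target, did not pass (log2 difference 0.02 ± 0.46 SE, edgeR adjusted p = 0.991). Sfrp5, a Frizzled-related gene outside the 9, also passed (4.55 ± 1.5, 0.0224), with 89 of its 91 fibroblast-like UMIs in PLV 2. All 89 were in the 5 perineurial-like cells, at 2842 CPM, and the perineurial-like cells of PLV 1 held it at 2293 CPM. Against the remaining fibroblasts the perineurial-like level of Sfrp5 was higher by a log2 difference of 11.02 ± 0.56 (SE; edgeR adjusted p = 1.11e-16). Schwann-like cells held Sfrp5 at 340, 192 and 353 CPM.

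**Figure D4:**
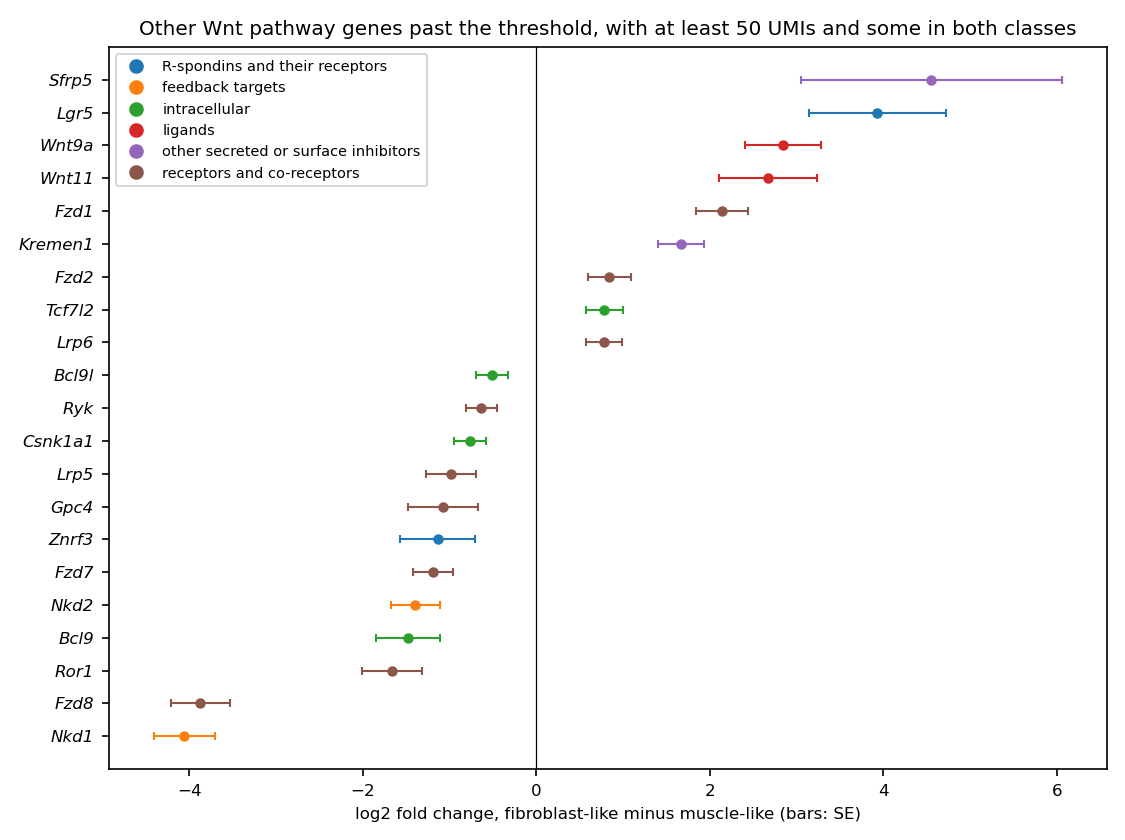
Log2 fold change between fibroblast-like and muscle-like sums (± SE, edgeR) of the listed Wnt genes past the threshold with at least 50 UMIs and at least 1 UMI in both classes, coloured by role. Sfrp5 lay highest at 4.55, followed by Lgr5 at 3.93, and Nkd1 and Fzd8 lowest at -4.06 and -3.87.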

How the data were processed

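Single-cell RNA was measured in 3 libraries of 2 pooled mice each. The deposited values are UMI counts per gene and barcode, not normalized; Cell Ranger, Seurat and GRCm38 are named in the submitters' processing notes, and the file headers give Cell Ranger 6.1.2 for PLV 1 and PLV 2 and 4 for the mixed library. The PLV files held 2649 and 730 barcodes, and the mixed file all 896360. The hashtag counts deposited with the mixed library were not used. Nothing states that the PLV libraries were prepared on separate days, so p-values measure the spread between these libraries.

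Barcodes with at least 500 UMIs, at least 300 genes and at most 15% mitochondrial UMIs were kept. Cells rich in haemoglobin (27, 1 and 8) and predicted doublets (8, 3 and 3 in PLV 1, PLV 2 and the mixed library) were removed. Each library was clustered without the members and the Wnt list (scanpy 1.11.5, Leiden resolution 1.0), and clusters were named from fixed markers. Counts were summed per class and library and fitted with edgeR 4.0.16 (quasi-likelihood, TMM, filter on low counts, library as block, Benjamini-Hochberg adjustment), with DESeq2 1.42.0 as an alternative. The block joins sums of the same library, which come from the same pooled mice. The joint sub-clustering of fibroblasts (resolution 0.8) and the fit of sums of at least 5 cells were chosen after seeing the data. The fit of class sums was tried on simulated counts for fibroblast-like against muscle-like cells alone, without the filter on low counts. The fits of subsets, of muscle kinds and of the mixed library against PLV were not simulated. Intervals are 95% and, like the floor of 3 counts, cover counting error only.

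All 9 members are named whatever their values. Genes of the Wnt list are named where they passed the fibroblast against muscle test with at least 50 UMIs. Axin2 is named in addition, beside Nkd1 and Nkd2. The members and lists were chosen with earlier results of these data known.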

Additional observations from a re-analysis of the deposited data

Results flagged for a closer look

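In 3 comparisons the ratio in the mixed library lay on the other side of 1 from both PLV libraries; the differences themselves were not tested. Sfrp2 in Pi16 adventitial-like cells was 0.955 times its level in the remaining fibroblasts in the mixed library (counting interval 0.674 to 1.32), against 1.18 in PLV 1 (0.845 to 1.65) and 13.1 in PLV 2 (3.26 to 75.0, from 9 and 3 UMIs). The Sfrp4 ratio of the same groups was 1.22 in the mixed library (0.865 to 1.67), against 0.561 (0.498 to 0.631) and 0.396 (0.185 to 0.756). The fibroblast to Schwann ratio of Sfrp1 was 0.273 in the mixed library (0.190 to 0.404), against 1.91 (1.21 to 3.18) and 1.04 (0.568 to 2.01). The intervals of 0.955, 1.18, 1.22 and 1.04 include 1, so the side of 1 is not settled for these values. Pi16 adventitial-like cells numbered 10 in PLV 2 and 12 in the mixed library.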

How the results depend on the processing

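Of 59 member results past the threshold, 27 kept their call and direction in every alternative run; over 747 alternatives 691 kept the call, 56 lost it and none changed direction. Of 38 results not past it, 18 alternatives gained a call. These counts also cover the mixed library against PLV, where the mixed side is a single library of unmeasured spread. DESeq2 called 4 members in fibroblast-like against Schwann-like sums, 3 in Schwann-like against muscle-like sums, 1 in endoneurial-like, 3 in perineurial-like and 1 in Pi16 adventitial-like cells, and, for the mixed library against PLV, 1 in fibroblasts (where edgeR called 2), 0 in muscle-like and 0 in Schwann-like cells (edgeR 1 each). With RLE size factors 1 member was called in Pi16 adventitial-like cells. Without the replicate block, 2, 3 and 1 members were called in endoneurial-like, perineurial-like and Pi16 adventitial-like cells, against 4, 5 and 2 with it, and Wnt6 lost its fibroblast to Schwann call (adjusted p = 0.0697); no other call of a member changed with the block. With Leiden resolution 0.5, 1 member was called between muscle kinds. Leaving out 1 library gave 14 to 20 genes of the Wnt list (23 with all), 3 to 5 members for Schwann against muscle (5), 1 to 3 between muscle kinds (3), 2 to 5 in perineurial-like (5) and 1 to 3 in Pi16 adventitial-like cells (2). The causes were not tested. No paired analysis was possible because the mixed library shares no replicate with PLV, and leaving out a PLV library there left no residual degrees of freedom. Small sums also limit the subset results: perineurial-like cells numbered 15, 5 and 1.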
